A study of Mus musculus with 3 samples.

Results

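The miR-30 family was described in MIN6 cells, a mouse insulinoma line used as a model of the pancreatic beta cell. The family was taken as the 6 mouse hairpins Mir30a, Mir30b, Mir30c-1, Mir30c-2, Mir30d and Mir30e, with 12 arms in all. The RefSeq table used for sequences held 1005 hairpin genes but had no entry for Mir30b and Mir30d. Small RNA was sequenced from 3 MIN6 libraries, described as biological replicates, which share 1 condition, growth in DMEM with 25 mM glucose. All values therefore describe 1 line in 1 culture medium, and no treated or untreated group exists to compare. The libraries held 9269795, 10816006 and 10218743 mapped reads in replicates 1, 2 and 3. The marker of these cells, miR-375, an miRNA enriched in pancreatic islets, took 33.4%, 35.7% and 37.1% of the mapped reads at its reference start.

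A miRNA hairpin is cut by Drosha and Dicer into a duplex with a 5p and a 3p arm, of which usually only 1 arm is retained by Argonaute. Bases 2 to 8 of the mature miRNA, the seed, pair with target transcripts, so a change of the 5′-start changes the seed, whereas a change of the 3′-end does not. The 5p arms of the miR-30 family are broadly expressed in vertebrate tissues and are known in pancreatic islet cells as repressors of mesenchymal transcripts.

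The 5p miRNAs with a RefSeq entry are shown first, at their most common read lengths, because 5p arms carry most of the reads. The 3p miRNAs and the shifted starts that the results turn on are shown with them. The arms of Mir30d, whose 5p arm was the most abundant, and of Mir30b are missing for want of an entry. Sequences are those of the RefSeq hairpins (GRCm38.p6), written 5′ to 3′ with the seed in capitals.
miR-30a-5p: uGUAAACAuccucgacuggaagcu
miR-30e-5p: uGUAAACAuccuugacuggaagcu
miR-30c-5p: uGUAAACAuccuacacucucagcu
miR-30e-5p+1: gUAAACAUccuugacuggaagcu
miR-30a-3p: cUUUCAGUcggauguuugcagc
miR-30e-3p: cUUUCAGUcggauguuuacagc
miR-30a-3p+1: uUUCAGUCggauguuugcagc
miR-30c-1-3p: cUGGGAGAggguuguuuacucc
miR-30c-2-3p: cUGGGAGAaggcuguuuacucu

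The 5p miRNAs printed above shared the seed GUAAACA. Counted from 1 at the 5′-end, miR-30a-5p and miR-30e-5p differed at 1 of 24 bases (C13U), and miR-30a-5p and miR-30c-5p at 5 bases (C13A, G14C, G18C, G19U and A20C), all 3′ of the seed. The 5p arms of Mir30c-1 and Mir30c-2 were identical over 28 bases from the start. The 3p arms printed above fell into 2 seeds. UUUCAGU was the seed of miR-30a-3p and miR-30e-3p, which differed by G18A alone. UGGGAGA was that of miR-30c-1-3p and miR-30c-2-3p, which differed by G9A, U12C and C22U. The seeds of miR-30b-3p and miR-30d-3p were not examined. Of 1679 mature names in the table, GUAAACA was also the seed of miR-384-5p, and UGGGAGA that of miR-6958-5p. A start 1 nt downstream changes the 5p seed to UAAACAU, which in the table belongs to miR-30f, and the UUUCAGU seed to UUCAGUC, which no name in the table has.

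The 6 hairpins lay in 3 pairs in the mouse genome (mm9 for all positions). On the plus strand of chromosome 1, miR-30a-5p started at 23279113 and miR-30c-2-5p at 23298553, 19440 nt apart. On the minus strand of chromosome 4, miR-30e-5p started at 120445286 and miR-30c-1-5p at 120442211, 3075 nt apart. On the minus strand of chromosome 15, miR-30d-5p started at 68172840 and miR-30b-5p at 68169052, 3788 nt apart. In the GENCODE M21 annotation, Mir30c-1 and Mir30e lie in an intron of Nfyc, a subunit of the transcription factor NF-Y, on the same strand. Mir30c-2 lies in an exon of the long non-coding RNA Gm27028, Mir30b in an exon of Gm26621, and Mir30d in exons of Gm37296 and Gm20732. No host gene was annotated for Mir30a.

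Taken as 1 family, the miR-30 arms held 4.21%, 3.62% and 3.52% of all mapped reads, that is 42052, 36192 and 35244 RPM (reads per 1000000 mapped reads), or 37829 ± 3688 RPM (SD, n = 3). Replicate 1 was the highest library and replicates 2 and 3 lay close together. Each of the 6 5p arms was highest in replicate 1 as well. In replicate 1 miR-375 took the smallest share of the mapped reads, and its part in the family level was not tested. With the reads of the miR-375-3p arm, at its reference start and within 5 nt of it, left out of the total, the family level was 64218, 57347 and 57122 RPM, with replicate 1 still the highest.

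miR-30d-5p was the most abundant member. Its arm held 13865, 11784 and 11192 RPM, and its 5′-reference miRNA ranked 9, 11 and 11 among all 5′-starts of the libraries. miR-30e-5p followed with 10457, 9178 and 8848 RPM, and ranked 12 in each library. miR-30a-5p held 10118, 8477 and 8429 RPM, and ranked 13 in each library. These 3 miRNAs held neighbouring ranks in replicates 2 and 3, and in replicate 1 other starts lay between miR-30d-5p and miR-30e-5p. Together they made up 83.4%, 83.0% and 82.5% of the 5p reads of the family. The levels of miR-30d-5p did not overlap those of miR-30e-5p, and in every library it was higher, by 1.33-, 1.28- and 1.26-fold.

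The levels of miR-30e-5p and miR-30a-5p overlapped over the libraries. Within each library miR-30e-5p was the higher, but only by 1.03-, 1.08- and 1.05-fold. Of the reads of the 2 arms together, miR-30e-5p took 50.8% (95% Wilson interval 50.6 to 51.0%), 52.0% (51.8 to 52.2%) and 51.2% (51.0 to 51.4%), so that the difference was small but larger than the counting error in each library. These intervals, like all below, cover counting error only.

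miR-30c-5p came next, with 5428, 4775 and 4751 RPM over both of its loci. The reads were divided equally between the loci by the mapping, which gave miR-30c-1-5p 2714, 2388 and 2375 RPM and miR-30c-2-5p 2714, 2388 and 2375 RPM. The 5p reads of these loci therefore cannot be told apart, and no order between them exists. miR-30b-5p was the least abundant 5p miRNA, with 1411, 1271 and 1284 RPM, and ranked 66, 65 and 71. Its levels lay below those of miR-30c-5p over both loci in every library. The equal part assigned to each miR-30c locus was 1.92-, 1.88- and 1.85-fold the level of miR-30b-5p. That ratio follows from the division of the reads and does not order miR-30b-5p against either locus. Between the lowest and the highest 5p member, miR-30b-5p and miR-30d-5p, which come from neighbouring hairpins on chromosome 15, the difference was 9.83-, 9.28- and 8.72-fold. The order of the 5p arms, miR-30d, miR-30e, miR-30a, miR-30c and miR-30b, was found in 3 of 3 libraries, although with 3 paired libraries an exact permutation test cannot go below 0.25 and none was made.

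**Figure D1:**
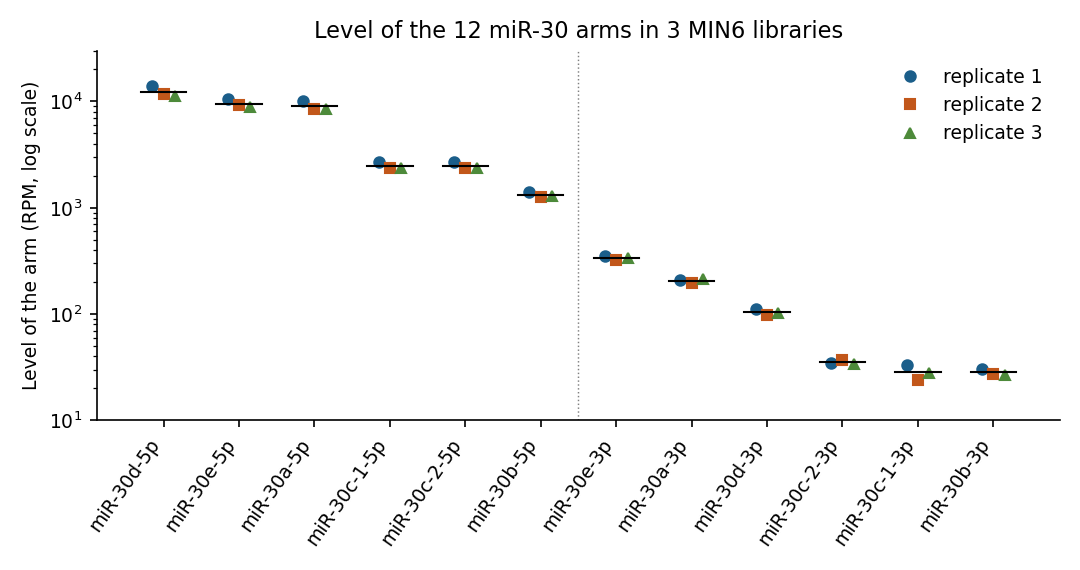
Level of each miR-30 arm in RPM on a log scale, with 1 symbol for each of the 3 replicates and a line at their mean. The 5p arms on the left lie between 1271 and 13865 RPM and the 3p arms on the right between 24.2 and 350.5 RPM, so that no 3p arm reached any 5p arm.

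The 5p arm dominated at every hairpin. Over the family it held 98.2%, 98.0% and 97.9% of the reads of both arms. The share ranged from 96.6% ± 0.2 (SD, n = 3) at Mir30e to 99.2% ± 0.06 at Mir30d, that is from 28.2 ± 1.7 to 117.0 ± 7.6 reads of the 5p arm per read of the 3p arm. These hairpins did not overlap, since Mir30d gave 123.1, 119.5 and 108.5 and Mir30e gave 29.8, 28.4 and 26.4. Mir30a had a ratio of 47.8, 43.1 and 39.7, and Mir30b one of 46.2, 46.3 and 47.9, with overlapping ranges. For miR-30c the 5p reads were only defined over both loci, where the ratio was 79.5, 78.0 and 76.8.

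The order of the 3p arms was not that of the 5p arms. miR-30e-3p was the highest with 350.5, 323.5 and 335.8 RPM. miR-30a-3p held 211.7, 196.6 and 212.3 RPM, and miR-30d-3p, whose 5p arm led the family, held 112.6, 98.6 and 103.2 RPM. These levels did not overlap, and miR-30e-3p exceeded miR-30a-3p by 1.66-, 1.65- and 1.58-fold. The remaining 3p arms were all below 40 RPM. miR-30c-2-3p had 322, 400 and 348 reads, miR-30c-1-3p had 311, 262 and 284 reads, and miR-30b-3p had 283, 297 and 274 reads. The order of miR-30c-1-3p and miR-30b-3p changed in replicate 2, and their levels overlapped.

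Unlike the 5p arms, the 3p arms of the miR-30c loci could be separated by sequence, and 100%, 99.8% and 100% of the miR-30c-1-3p reads and 100% of the miR-30c-2-3p reads at their reference starts had whole-number values. miR-30c-2-3p made up 50.9% (95% Wilson interval 47.0 to 54.7%), 60.4% (56.6 to 64.1%) and 55.1% (51.2 to 58.9%) of the 3p reads of both loci. In replicate 1 the interval held equal levels of the loci, and in replicates 2 and 3 miR-30c-2-3p was the higher. How the 5p reads divide between the loci cannot be read from these shares.

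Few reads at the hairpins lay outside the arms. They numbered 100.3, 93.5 and 76.9 at Mir30a and 229.3, 243.1 and 172.9 at Mir30d, which was at most 0.189% of the reads of a hairpin. On the opposite strand of all 6 hairpins, which at Mir30e is the strand of miR-30f, there were 0 reads in each library, which allows a level of up to 0.324 RPM in the smallest library. miR-30f was therefore not detectable at this depth.

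The 5′-starts of the 5p arms were nearly uniform. Over the family, 99.2% ± 0.04 (SD, n = 3) of the 5p reads began at the reference start. Of 12 arms, 5 had another start that held at least 1% of the reads of the arm in every library, and in each of them it lay 1 nt downstream. miR-30e-5p+1 had 1332, 1325 and 1388 reads, which was 1.37%, 1.33% and 1.54% of its arm. miR-30a-5p+1 had 1139, 1034 and 1031 reads, which was 1.21%, 1.13% and 1.20%. Both were thus more abundant than any single 3p arm of Mir30b or of the miR-30c loci, at 134.0 ± 10.7 and 106.5 ± 14.5 RPM. In contrast, miR-30d-5p, the most abundant arm, had only 116, 135 and 112 reads at this start, or 0.090%, 0.106% and 0.098% of its arm. miR-30b-5p had 0, 0 and 1 reads there, and each miR-30c-5p locus 2, 3 and 2 reads. These shares did not overlap those of miR-30e-5p and miR-30a-5p.

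The shift was far more frequent on the 3p arms of Mir30a and Mir30d. miR-30a-3p had 1320, 1428 and 1415 reads at the reference start and 629.5, 691 and 742.5 reads 1 nt downstream. The shifted form thus made up 32.1% (95% Wilson interval 30.1 to 34.2%), 32.5% (30.5 to 34.5%) and 34.2% (32.2 to 36.2%) of the arm. miR-30d-3p had 869, 888 and 870.5 reads at the most used start and 172, 178.5 and 182 reads 1 nt downstream, which was 16.5% (14.3 to 18.8%), 16.7% (14.6 to 19.1%) and 17.3% (15.1 to 19.7%). miR-30e-3p, which differs from miR-30a-3p by 1 base outside the seed, had 78.5, 83 and 78 shifted reads, or 2.42%, 2.37% and 2.27% of its arm. The shifted shares of miR-30a-3p, miR-30d-3p and miR-30e-3p did not overlap in any pair. In the shifted form of miR-30a-3p the seed is UUCAGUC, as printed above, in place of UUUCAGU.

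**Figure D2:**
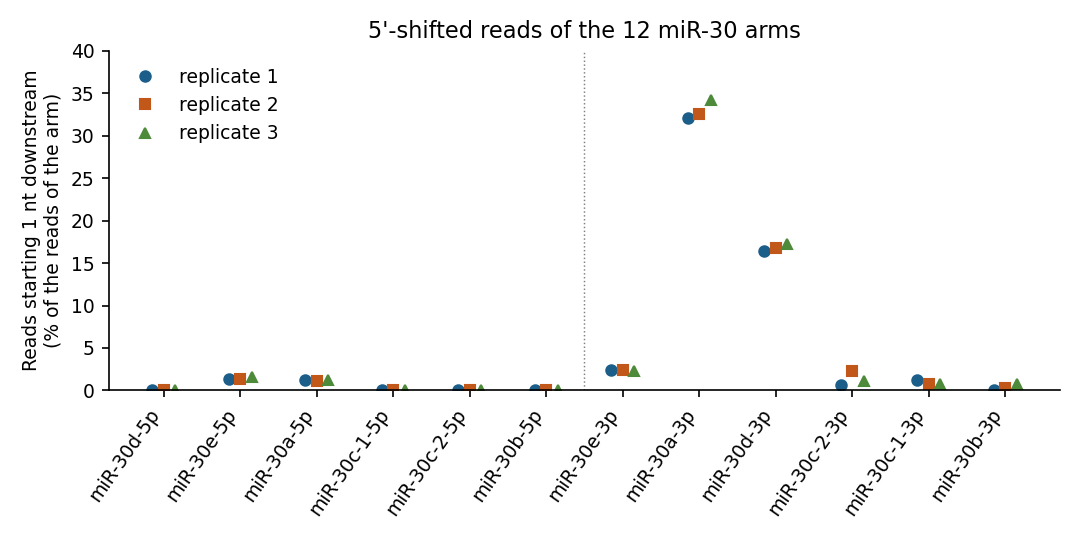
Share of the reads of each miR-30 arm that began 1 nt downstream of the reference start, in percent, with 1 symbol for each of the 3 replicates. miR-30a-3p lies at 32.1 to 34.2% and miR-30d-3p at 16.5 to 17.3%, whereas no 5p arm exceeds 1.54%.

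The 3′-ends set the members apart as well. At the reference starts of the 5p arms, 79.7% ± 0.3 (SD, n = 3) of the reads were 24 nt long. Read by member, the 24 nt form made up 92.5%, 92.5% and 92.7% of miR-30c-5p, 89.4%, 89.8% and 89.6% of miR-30e-5p, 80.1%, 79.8% and 80.7% of miR-30a-5p, and 75.2%, 74.4% and 75.9% of miR-30d-5p. The RefSeq mature forms are 22 nt for miR-30a-5p and miR-30e-5p and 23 nt for miR-30c-5p, so the most common reads were 2 or 1 bases longer than these. miR-30b-5p was the exception, with 96.5%, 96.8% and 96.7% of its reads at 22 nt and 0.727%, 0.568% and 0.541% at 24 nt. Its neighbour on chromosome 15, miR-30d-5p, had the broadest lengths, with 10.4%, 10.4% and 10.1% at 23 nt. Reads of 23 nt also made up 5.77%, 5.5% and 5.84% of miR-30a-5p, and reads of 25 nt made up 5.90%, 5.49% and 5.75% of miR-30e-5p.

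Few starts had 24 nt as their most common length. Of 388 5′-starts with at least 1000 reads in every library, 19 (4.9%) had 24 nt as their most common length in every library. Of the 8 miR-30 starts among the 388, 5 did, namely miR-30a-5p, miR-30d-5p, miR-30e-5p and the loci of miR-30c-5p, of which the latter share their reads. Base 24 of the hairpin is U in miR-30a, miR-30c and miR-30e, so a U added to a 23 nt form cannot be told apart from a templated 24 nt form.

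miR-30a-5p and miR-30d-5p also had a short form of 20 nt. It made up 8.42%, 8.74% and 7.56% of miR-30a-5p and 4.98%, 5.40% and 4.5% of miR-30d-5p, compared with 0.456%, 0.476% and 0.483% of miR-30e-5p. The shares of these 3 members did not overlap. miR-30a-5p and miR-30e-5p, which differ by C13U alone, thus had the same most common length but not the same share of short reads.

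**Figure D3:**
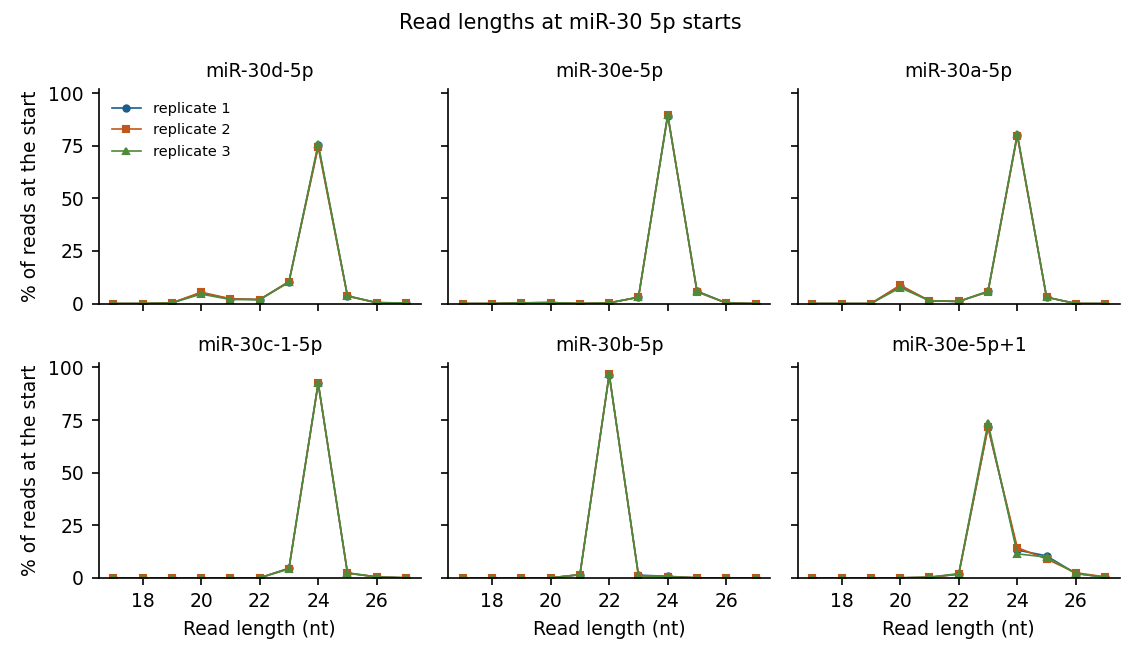
Share of the reads at a 5p start, in percent, by read length in nt, with 1 line for each of the 3 replicates. miR-30d-5p, miR-30e-5p, miR-30a-5p and miR-30c-1-5p peak at 24 nt, miR-30b-5p peaks at 22 nt, and the shifted miR-30e-5p+1 peaks at 23 nt, the same 3′-end as its reference form.

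The reads of the shifted 5p starts kept the 3′-end. In miR-30e-5p+1 the most common length was 23 nt, with 71.7%, 71.5% and 73.7% of the reads, and in miR-30a-5p+1 it was 23 nt as well, with 78.2%, 79.7% and 78.4%. The shifted forms therefore ended at the same base as the 24 nt reference forms. Likewise, miR-30a-3p was mostly 22 nt long (75.2%, 73.2% and 75.4%) and miR-30a-3p+1 mostly 21 nt (69.7%, 73.2% and 73.2%). The other 3p arms had 22 nt as the most common length in all libraries. Reads of 23 nt made up 14.8%, 10.9% and 11.4% of miR-30d-3p, 10.3%, 9.52% and 9.56% of miR-30b-3p and 9.32%, 10.8% and 10.0% of miR-30a-3p. Reads of 21 nt made up 7.73%, 9.04% and 6.5% of miR-30a-3p and 11.1%, 9.63% and 12.1% of miR-30c-1-3p. miR-30c-2-3p was the least uniform, with 69.6%, 66.0% and 72.1% at 22 nt and 19.7%, 23.6% and 17.6% at 20 nt, and 5.83%, 7.01% and 7.06% at 21 nt. Its paralog miR-30c-1-3p had 5.23%, 6.17% and 8.87% at 20 nt, and these shares did not overlap although each rested on fewer than 400 reads.

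A mismatch at the last base of a read was counted as a 3′-non-templated addition (3′-NTA). This is narrower than the count of the study, which takes mismatches in a 3′ stretch of up to 3 bases, depending on the read length. Over the 5p reference starts, 5.49%, 5.41% and 5.40% of the reads ended in one. Of the 388 starts above, 146 (37.6%) had at least 5% of such reads in every library. Of the 8 miR-30 starts among them 5 did, namely miR-30a-5p, miR-30d-5p, miR-30e-5p, miR-30a-3p and miR-30e-3p. The median of all 388 starts was 2.81%. At miR-30a-5p the share was 5.14%, 5.17% and 5.14%, of which 0.840%, 0.913% and 0.934% were 20 nt reads with the A20C change at their last base, a change that was also frequent inside longer reads, as described below. Without these reads as additions miR-30a-5p had 4.30%, 4.26% and 4.21% and no longer passed 5%, whereas miR-30d-5p (5.74%, 5.67% and 5.68%) and miR-30e-5p (6.61%, 6.24% and 6.37%) did. With any mismatch in the 3′ stretch counted, the share moved most at miR-30a-3p, from 15.3%, 15.5% and 15.9% to 21.9%, 23.5% and 22.3%.

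The added base was mostly U, read as T in the libraries. At the 5p arms, U as a last mismatch ranged from miR-30e-5p, with 6.06%, 5.66% and 5.85% of the reads, through miR-30d-5p (4.74%, 4.62% and 4.71%), miR-30a-5p (3.54%, 3.49% and 3.48%) and miR-30c-5p (2.22%, 2.36% and 2.42%) to miR-30b-5p (0.918%, 0.757% and 0.778%). No neighbours in this order overlapped. The median share over the 388 starts was 0.584%. In miR-30e-5p and miR-30d-5p most of the U was at base 25, directly after the 24 nt form. Reads of 25 nt with a final U made up 5.81%, 5.41% and 5.65% of miR-30e-5p and 3.48%, 3.36% and 3.55% of miR-30d-5p. In miR-30b-5p it was mostly at base 23, directly after the 22 nt form, in 0.895%, 0.677% and 0.717% of the reads. Bases other than U reached 1% in every library at none of the 5p reference starts.

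Terminal U was more frequent on the 3p arms of 4 hairpins. miR-30a-3p had 13.6%, 13.1% and 14.2%, miR-30e-3p 10.7%, 10.5% and 9.78%, miR-30b-3p 10.3%, 9.52% and 9.56%, and miR-30d-3p 7.83%, 6.25% and 7.41% of reads with a final U. Each of these was above the 5p arm of the same hairpin in every library. miR-30c-2-3p had 3.24%, 2.60% and 1.76% and miR-30c-1-3p had 0.980%, 0.771% and 0.709%, of which the former overlapped miR-30c-5p and the latter lay below it. At miR-30a-3p most of it was in reads of 22 nt, where the templated base is C, so that a 21 nt form with an added U cannot be told apart from a changed last base. The same limit holds for the 22 nt reads with a final U of miR-30e-3p (6.99%, 6.62% and 6.31%) and miR-30d-3p (7.83%, 5.91% and 7.41%). In miR-30b-3p the final U lay in reads of 23 nt, which are longer than its most common form.

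The shifted forms carried more terminal U than their reference forms. miR-30e-5p+1 had 14.3%, 15.1% and 12.2%, against about 6% at the reference start, and miR-30a-5p+1 had 10.4%, 10.1% and 9.89%, against about 3.5%. On the 3p arm, miR-30a-3p+1 had 23.5% (95% Wilson interval 20.3 to 27%), 21.2% (18.2 to 24.3%) and 23% (20.2 to 26.2%), and miR-30e-3p+1 had 21%, 21.7% and 23.7%. Each of these lay above its reference form without overlap. miR-30d-3p+1, with 7.85%, 6.16% and 6.32%, overlapped miR-30d-3p and was the exception. A final A reached 1.20%, 1.40% and 1.44% in miR-30e-5p+1 and 1.78%, 1.79% and 2.88% in miR-30a-5p+1. A final C reached 2.86%, 1.66% and 2.96% in miR-30a-3p+1. In miR-30e-3p+1 a final C had 2.55% (95% Wilson interval 0.71 to 8.88%), 6.02% (2.60 to 13.3%) and 3.85% (1.32 to 10.7%). A final A there had 1.27% (0.23 to 6.91%), 1.20% (0.21 to 6.51%) and 1.28% (0.23 to 6.91%). As this start held only 78.5, 83 and 78 reads, these shares of C and A rest on very few reads.

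**Figure D4:**
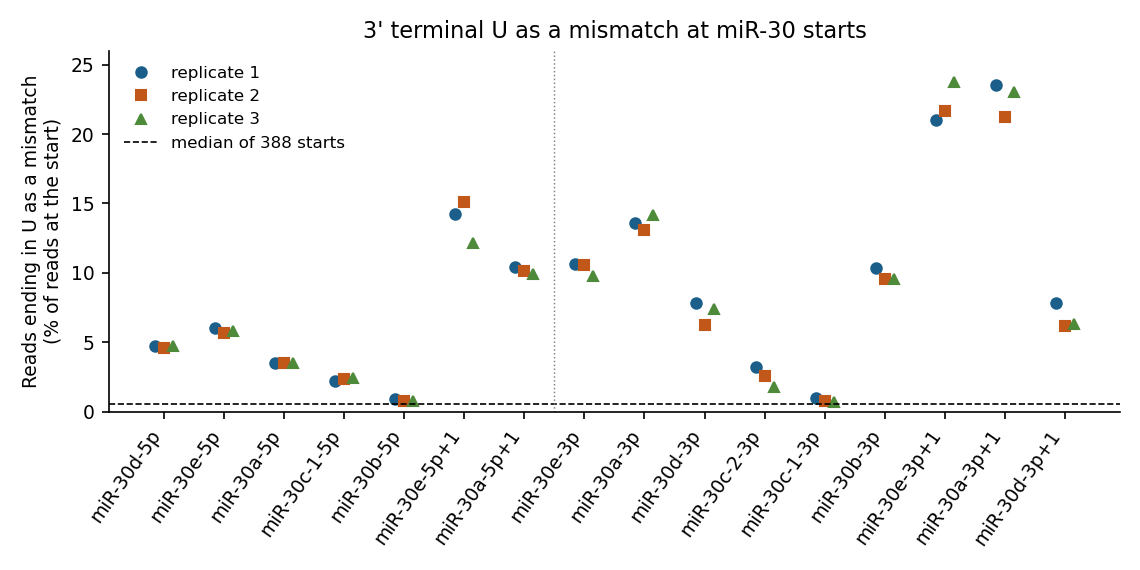
Share of the reads at each miR-30 start that ended in U as a mismatch, in percent, with 1 symbol for each of the 3 replicates and a dashed line at the median of 388 starts (0.584%). The +1 starts of miR-30e and miR-30a lie above their reference starts on both arms.

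Mismatches before the last base of a read were dominated by a few read positions. The study counts mismatches within a read as potential RNA edits, but those in its 3′ stretch as 3′-NTAs. Both kinds are included here, so mismatches near the 3′-end can be 3′-NTAs by its count. At miR-30a-5p, 9.63%, 9.53% and 10.1% of the reads carried A6C, and at miR-30e-5p 9.02%, 8.92% and 9.50%. miR-30c-5p had 11%, 11.2% and 10.7%. In miR-30d-5p a C was recorded at read position 6 in 9.16%, 9.08% and 9.57% of the reads, and in miR-30b-5p in 11.1%, 11.4% and 11.2%. Base 6 lies in the seed. A further change, A20C, was found in 6.42%, 6.0% and 5.84% of the miR-30a-5p reads and in 6.89%, 6.45% and 6.31% of the miR-30e-5p reads. In miR-30d-5p a C was recorded at read position 20 in 6.81%, 6.21% and 6.18%. miR-30c-5p had A21C in 1.42%, 1.45% and 1.52%, and miR-30e-5p in 0.644%, 0.617% and 0.648%. In miR-30d-5p a C at read position 21 was found in 0.559%, 0.611% and 0.596%. The remaining internal mismatches of the 5p arms past 0.5% in every library were at read position 7 in miR-30a-5p, miR-30b-5p, miR-30c-5p and miR-30e-5p (0.549 to 1.17%), and at read positions 13 (0.766%, 1.74% and 1.86%) and 25 (0.636%, 0.614% and 0.657%) in miR-30d-5p.

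The shifted forms separate the base from its place in the read. In miR-30e-5p+1 base 6 of the miRNA is read at position 5, and A6C was found in 0%, 0% and 0.072% of its reads. In the same form base 21 is read at position 20, and A21C was found in 9.24%, 10.2% and 10.0% of the reads, compared with 0.644%, 0.617% and 0.648% at the reference start. miR-30a-5p+1 had A6C in 0 reads in each library and A21C in 8.25%, 12.5% and 9.99%. Thus the C mismatches followed the position in the read and not the base of the miRNA in both shifted forms.

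The same read positions stood out outside the family. Of the 388 starts, 57 (14.7%) had at least 5% of reads with a C mismatch at position 6 in every library, and all 8 miR-30 starts among them did. An A was inferred at position 6 where C, G and T had each been recorded as mismatches and A never had. Of the 54 starts of this kind, 51 (94.4%) passed 5%, among them the 8 miR-30 starts. A start with an A but no recorded C mismatch could not enter this set, so 94.4% is not a share of all starts with an A. At the 46 others the median was 8.60%, within the range of the miR-30 members. At other starts with an inferred A, the median was 7.58% at read position 20 (40 starts) and 0.0014% at read position 5 (8 starts). A share of C at position 6 of at least 5% was therefore shared by most starts with an inferred A at that position.

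The 3p arms showed the same pattern at further positions. A12C was found in 15%, 14.4% and 15.3% of the miR-30a-3p reads and in 16.9%, 16.7% and 14.7% of the miR-30e-3p reads, beside a median of 18.5% at other starts with an inferred A at read position 12. A6C made up 6.97%, 5.46% and 7.0% of miR-30a-3p and 7.18%, 7.53% and 7.23% of miR-30e-3p, and A20C made up 5.76%, 7.78% and 7.0% and 7.30%, 6.56% and 6.49% of these arms. The C mismatch at read position 6 was found in 5.63 to 12.4% of the reads of the 3p arms of Mir30b, Mir30c-1, Mir30c-2 and Mir30d. At read position 12 it was found in 23.5%, 19% and 17.3% of miR-30b-3p and 12.9%, 12% and 10.9% of miR-30d-3p, and at read position 10 in 10.4%, 8.0% and 11.8% of miR-30d-3p. miR-30c-2-3p had it at read position 9 in 2.27%, 3.38% and 3.24%. A T mismatch at read position 22 in longer reads, which the last-base count leaves out, was found in 6.40%, 7.15% and 5.97% of miR-30a-3p, 3.8%, 2.03% and 2.30% of miR-30d-3p and 2.61%, 3.21% and 2.86% of miR-30e-3p. At miR-30a-3p, 3.90%, 4.87% and 4.10% of the reads had A at position 18, the base of miR-30e-3p (G18A). Of these reads 98.1%, 78.4% and 98.3% had fractional values, that is, they had also been assigned to another locus, so the change cannot be told apart from reads of miR-30e-3p.

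**Figure D5:**
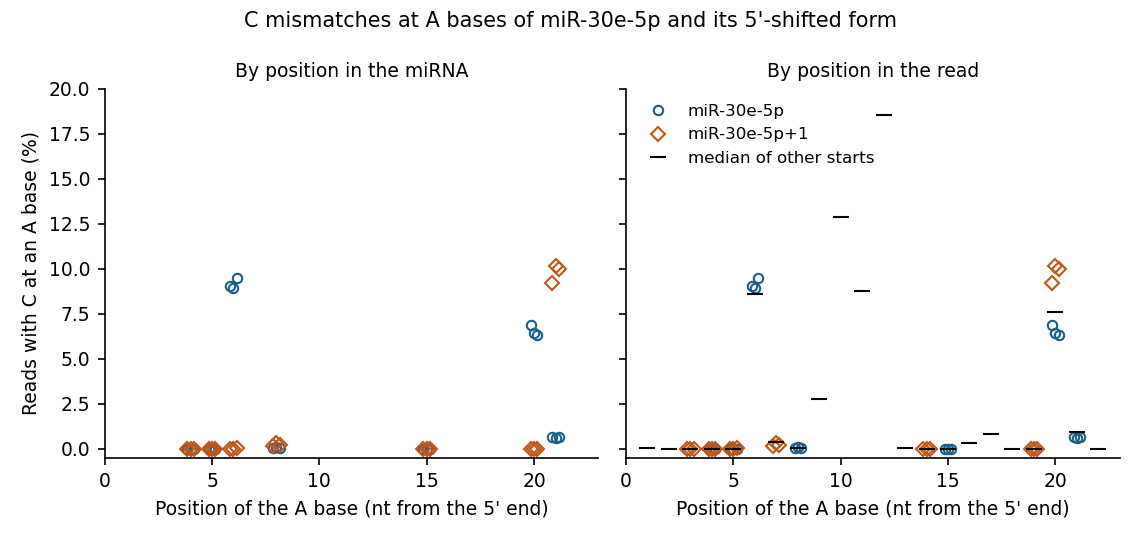
Share of reads with C at an A base of miR-30e-5p (circles) and miR-30e-5p+1 (diamonds), in percent, for each of the 3 replicates, by position in the miRNA (left) and in the read (right), with bars at the median of other starts with an inferred A. On the right both forms line up, with high values at read position 20 (6.31 to 10.2%) and, where the reference form has an A, at read position 6 (8.92 to 9.50%).

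Exact reads without any mismatch made up 76.6%, 76.7% and 75.4% of miR-30a-5p, 75.3%, 75.6% and 74.5% of miR-30e-5p and 75.4%, 74.9% and 74.0% of miR-30d-5p. miR-30b-5p had 83.6%, 83.8% and 84.3%. miR-30c-5p had 81.9%, 81.5% and 82.0%. The 3p arms of Mir30a, Mir30b, Mir30d and Mir30e were lower, between 52.7% and 66.2%. Those of the miR-30c loci were not, with 85.6%, 90.0% and 87.6% at miR-30c-1-3p and 85.1%, 80.8% and 78.2% at miR-30c-2-3p. As the mapping allowed 1 mismatch in the body of a read, reads that carried several were not counted here, and the levels above are those of the reads that could be placed.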

How the data were processed

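Small RNA of 3 MIN6 libraries was analysed. The authors isolated total RNA with a Norgen kit, prepared TruSeq small RNA libraries and sequenced them on a HiSeq. They trimmed adaptors (cutAdapt 1.0), mapped reads of 14 to 41 nt exactly (Bowtie 0.12.7), merged regions within 65 nt (bedtools 2.17.0), extended them by 5 nt and placed the remaining reads there with mismatches (SHRiMP 2.2.2). Each deposited value is an expected count, given for 1 distinct alignment, with reads divided among equally good loci, not normalized and not pooled. The labels name mm9. Mismatched reads were only sought near exact ones, and members with identical arms depend on the division of reads.

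Starts, lengths and mismatches were counted in pandas 2.3.3 (Python 3.11.15, numpy 2.4.6), intervals were taken from scipy 1.17.1 and plots from matplotlib 3.10.9. Exact alignments end 1 base early, which was corrected. Of the 12 reference starts, 3 were given, 4 were found by relative expression within 0.2%, 3 from the RefSeq hairpin, and those of miR-30b-3p and miR-30d-3p were the start with most reads. At 57, 43, 46 and 55 hairpin positions of Mir30a, Mir30c-1, Mir30c-2 and Mir30e with a mismatch, the hairpin base was recorded as a mismatch at 0. Starts within 5 nt of the reference start formed an arm. Shares have 95% Wilson intervals, and 3 reads set the limit for a count of 0. No test was made, since all libraries share 1 condition. All hairpins and arms were named, with other starts from 1% of the arm and, at reference starts, lengths from 5%, added bases from 1% and internal mismatches from 0.5% in every library. Values below these limits and values of the shifted starts were given where a comparison used them. The shares were tested on simulated data. The members, lists and limits were chosen with earlier results of these data known.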

Additional observations from a re-analysis of the deposited data

How the results depend on the processing

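No paired analysis was possible because there was only 1 group, so no groups share replicate numbers, and members were compared within each library instead. Of 39 alternative values, 15 moved by more than the spread between replicates and 24 did not. The 24 include the alternatives for the order of the 5p arms, which have no such spread and left the order unchanged. Leaving out 1 of 3 replicates always moves a mean by less than their SD, so these alternatives could only count among the 24. The same holds for the 3′ mismatch share with starts within 2 nt, which rests on reference starts only. Among the other alternatives, more moved than did not. With exact alignments only, the family level was 28826 RPM, the 5p share 98.4%, the reference start share of the 5p reads 99.24% and the share of 24 nt reads 83.6%. With whole-number values only, which removes most miR-30c-5p reads, these were 33255 RPM, 97.8%, 99.09% and 77.5%, and the 3′ mismatch share was 6.03%. With reads of 18 to 25 nt, the 3′ mismatch share was 5.21% and the share of 24 nt reads 80.4%. The family level was 43058 RPM when the total was the mapped reads of 16 to 27 nt, 59562 RPM when the miR-375-3p arm was left out of the total, and 58509 RPM when only its reference start was. With any mismatch in the 3′ stretch of the study counted, the 3′ mismatch share was 5.84%. Leaving out 1 replicate gave 35718 to 39122 RPM, 5p shares of 97.97 to 98.10%, reference start shares of 99.18 to 99.22%, 3′ mismatch shares of 5.41 to 5.45% and 24 nt shares of 79.54 to 79.86%. The order of the 5p arms was found in 3 of 3 libraries with exact alignments and with the miR-30c-5p loci added. The alternatives for length, for the 3′ stretch and for the miR-375 reference start were chosen after seeing the data. The cause of the other shifts was not tested. Depth limits the 3p arms of Mir30b, Mir30c-1 and Mir30c-2, which held at most 400 reads each.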
